A study of Homo sapiens with 6 samples.

Results

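Replication needs a balanced supply of the deoxynucleoside triphosphates (dNTPs), and 8 genes of that supply were followed here: RRM1, RRM2, TYMS, TK1, DUT, SAMHD1, DCK and DTYMK. They were examined in ATAC-seq peak lists of RKO cells, an established human colon cancer line, of which 3 samples had received aphidicolin (APH), at 0.2 µM over 16 h, and 3 the solvent DMSO. Both groups were grown in the same medium at low oxygen, and nothing else in the labels separates them. APH inhibits the replicative DNA polymerases, and the dose was chosen by the study to give mild replication stress. ATAC-seq marks open chromatin through the insertions of the Tn5 transposase, so the lists give accessibility and not transcription. A peak belonged to a gene if its midpoint lay in the RefSeq gene body or within 1 kb of it, and by that rule 149 of the 442008 peaks of the 6 lists were taken. They numbered 20, 28 and 24 in DMSO replicates 1 to 3 and 29, 27 and 21 in APH replicates 1 to 3.

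A peak with its midpoint within 1 kb of the gene start was called a start peak, and the others were called body peaks. The value of a peak is the mean over it of a coverage map, which was taken as not scaled to library size. The start value of a gene is the mean of its start peaks weighted by their length. Between 64511 and 84510 peaks were listed per sample, with a mean value of 78.3 to 85.2 in DMSO and 69.4 to 73.0 in APH. The depth of the libraries is unknown, and no counting error can be given. Of 9 colon epithelial genes checked, CDX2, EPCAM and KRT8 had a start peak in all 6 samples, while CDX1, VIL1, CDH1 and CDH17 had none. The leukocyte genes PTPRC and CD3E had none either, and of the fibroblast genes COL1A1 and COL1A2 had a start peak in all 6 samples and DCN in none.

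Deoxynucleotides are made by reduction of ribonucleotides or salvaged from deoxynucleosides. RRM1 is the large subunit of ribonucleotide reductase and carries its catalytic and regulatory sites, and RRM2 is the small subunit, whose level follows S phase. TYMS, thymidylate synthase, makes dTMP from dUMP, and DTYMK phosphorylates dTMP on the way to dTTP. DUT, the dUTPase, hydrolyses dUTP to dUMP, which keeps uracil out of DNA. TK1 and DCK are the cytosolic salvage kinases for thymidine and for deoxycytidine and purine deoxynucleosides. SAMHD1 hydrolyses dNTPs and so works against the others. The promoters of several of these genes are known targets of the E2F factors of the G1 to S transition and of NF-Y, which binds CCAAT.

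The promoter sequences of the gene with nearly equal mean start values as deposited (RRM1) and of the 4 genes of lowest adjusted p in the start comparison (TYMS, SAMHD1, DTYMK and RRM2) are shown, because these windows lie under or beside the start peaks described next. They are RefSeq sequences of GRCh38.p14, 5′ to 3′ on the strand of the gene, from 250 bases before the start to 30 bases from it. Capitals mark CCAAT or ATTGG and the E2F letters TTCCCGC or TTCGCGC or TTGGCGC or TTGCCGC, or their reverse complements.
RRM1 (chr11:4094435-4094714, plus strand): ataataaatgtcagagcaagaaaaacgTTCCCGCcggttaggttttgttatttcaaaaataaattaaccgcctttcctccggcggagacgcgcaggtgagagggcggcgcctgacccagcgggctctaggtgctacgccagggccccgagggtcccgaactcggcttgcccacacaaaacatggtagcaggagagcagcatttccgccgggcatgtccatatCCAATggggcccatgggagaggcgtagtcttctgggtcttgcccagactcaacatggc
RRM2 (chr2:10122318-10122597, plus strand): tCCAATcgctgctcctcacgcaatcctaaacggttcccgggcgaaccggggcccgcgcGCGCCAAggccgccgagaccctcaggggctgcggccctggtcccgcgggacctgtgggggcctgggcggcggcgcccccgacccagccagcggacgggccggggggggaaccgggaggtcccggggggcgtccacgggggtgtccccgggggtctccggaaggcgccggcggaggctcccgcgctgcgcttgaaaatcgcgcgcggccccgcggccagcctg
TYMS (chr18:657403-657682, plus strand): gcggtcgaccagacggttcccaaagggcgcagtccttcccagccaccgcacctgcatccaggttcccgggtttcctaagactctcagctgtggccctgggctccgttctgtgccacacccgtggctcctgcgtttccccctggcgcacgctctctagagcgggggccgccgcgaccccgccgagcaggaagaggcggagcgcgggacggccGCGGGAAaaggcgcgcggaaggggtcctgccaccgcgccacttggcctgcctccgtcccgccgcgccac
SAMHD1 (chr20:36951679-36951958, minus strand): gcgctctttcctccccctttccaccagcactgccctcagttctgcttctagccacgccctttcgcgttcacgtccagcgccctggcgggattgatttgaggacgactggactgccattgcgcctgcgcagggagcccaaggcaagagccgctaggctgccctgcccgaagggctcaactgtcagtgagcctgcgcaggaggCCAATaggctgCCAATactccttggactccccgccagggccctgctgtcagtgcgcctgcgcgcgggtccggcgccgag
DTYMK (chr2:241686786-241687065, minus strand): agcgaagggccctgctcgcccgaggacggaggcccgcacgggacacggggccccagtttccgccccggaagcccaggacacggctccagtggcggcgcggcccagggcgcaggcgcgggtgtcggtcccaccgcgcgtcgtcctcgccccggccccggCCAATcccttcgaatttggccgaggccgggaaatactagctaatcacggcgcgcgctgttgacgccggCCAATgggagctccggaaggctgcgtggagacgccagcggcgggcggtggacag

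All 8 genes matched the RefSeq promoter table, with 13 windows of 300 bases in all, since RRM2, TK1 and DUT have several starts. GC content of these windows ranged from 55.7% to 78.3%, with a median of 62.3% over 22199 windows of protein-coding genes. CCAAT, on either strand, was in a window of 5 genes (DTYMK, RRM1, RRM2, SAMHD1 and TK1), and 34.7% of the protein-coding windows hold it (34.6% of all 35116 windows of the table). In the SAMHD1 sequence 2 copies begin at -49 and -38 from the start, and in that of DTYMK 2 begin at -92 and -24. The second RRM2 start, 171 bp inside the first, has 3 copies at -123, -93 and -66 from itself. The E2F letters were in a window of 6 genes (DCK, DUT, RRM1, RRM2, TK1 and TYMS) and in 16.1% of the protein-coding windows (13.0% of all windows). In TYMS they begin at -39, on the opposite strand. GGGCGG, the core letters bound by the SP family, was in a window of 6 genes (56.3% of protein-coding and 45.0% of all windows), TTTGAA in DUT and RRM1 (12.4% and 15.2%), and TATAAA in TK1 (9.47% and 11.5%). A gene with several windows had more chances to hold a motif, and with the first window alone CCAAT and the E2F letters were each found in 4 of 8 genes and GGGCGG in 5. These matches describe the letters of the windows and are not binding sites.

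Every one of the 8 genes had a start peak in all 6 samples. This held for 10813 (55.0%) of the 19675 protein-coding genes with a known strand. RRM1, TYMS, DUT, DCK and DTYMK were mostly marked by a single start peak, whereas TK1 had 2 in each sample. The start peaks of DUT were 1278 to 1491 bp wide, and those of TYMS 1283 to 1500 bp except in APH replicate 1, where the region was split into peaks of 545 and 655 bp. DUT has 4 RefSeq starts and TYMS shares its start region with another transcript, which starts 638 bp inside TYMS on the other strand (TYMSOS). AFMID starts at -158 bp from the TK1 start and ING5 at -205 bp from the DTYMK start, both on the opposite strand, and DUT-AS1 starts 761 bp inside DUT. The start peaks of these 4 genes therefore cannot be given to 1 gene of each pair. No other gene of known strand starts within 1 kb of RRM1, RRM2, SAMHD1 or DCK. LOC124906144 and LOC105373424 overlap the RRM2 body or its 1 kb margin, and without a known strand their starts were not placed.

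**Figure D1:**
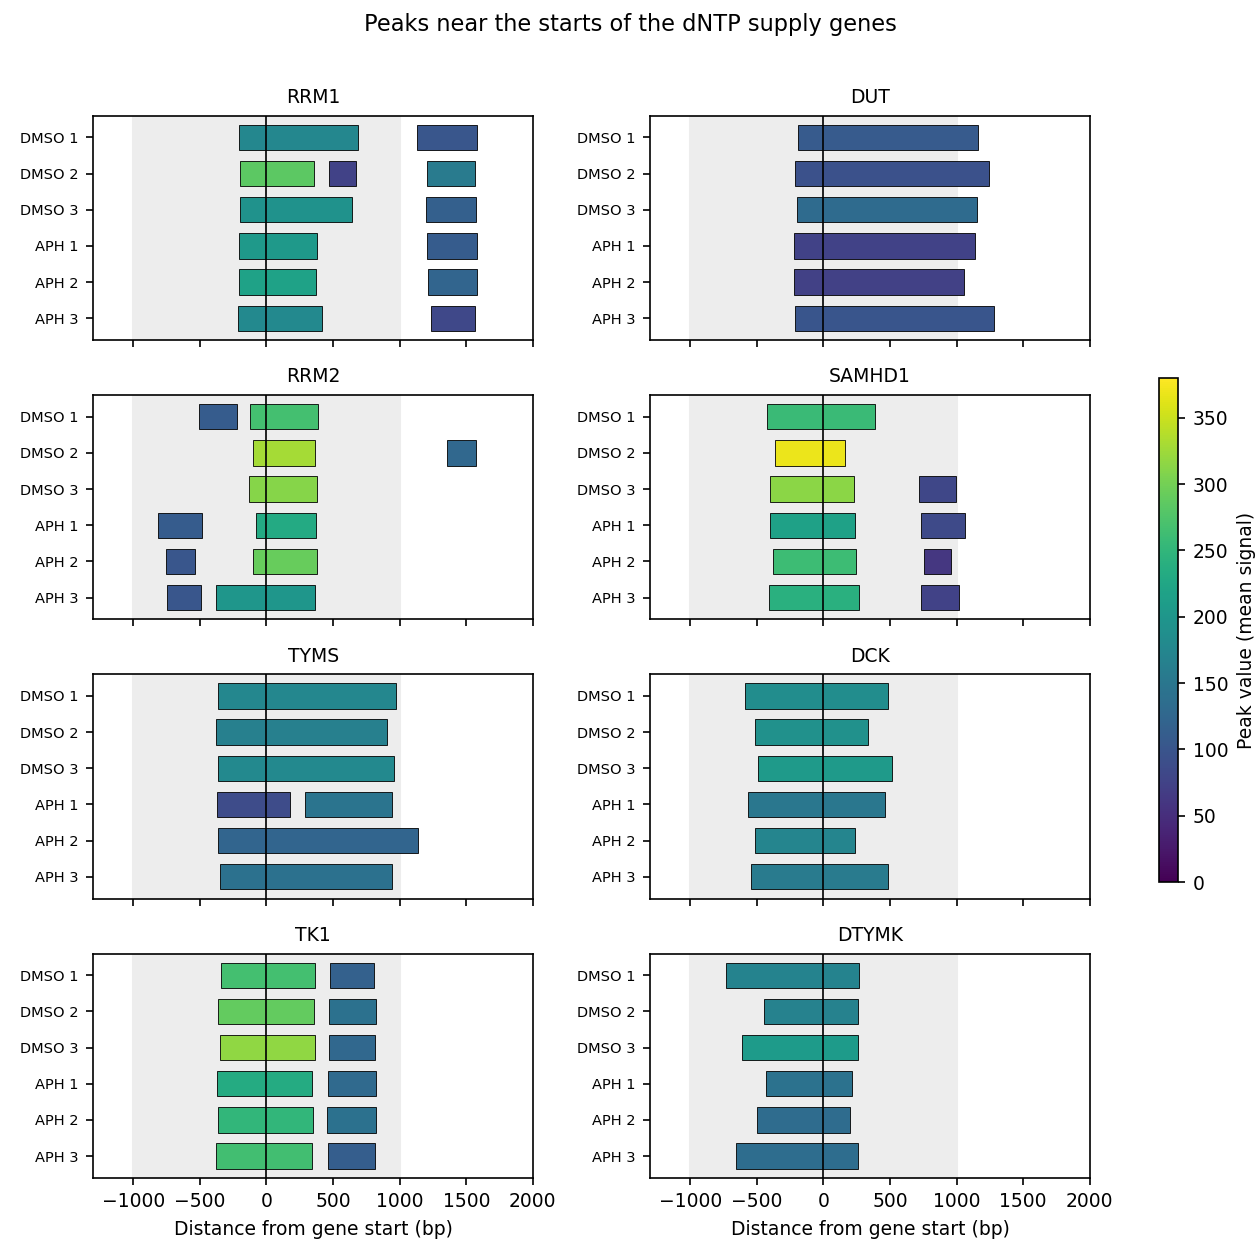
Peaks of each sample near the 8 gene starts, by distance from the start in bp along the direction of the gene, coloured by peak value (mean signal); grey marks the window of 1 kb on each side. The RRM1 peaks end further downstream in DMSO, a separate peak upstream of RRM2 appears in 3 APH samples and, nearer the start, in DMSO replicate 1, and the SAMHD1 peak near +0.9 kb appears in 3 APH samples and 1 DMSO sample.

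The question of the comparison was whether APH altered accessibility at these genes. Mean start values were lower in APH at 7 of the 8 genes, between 0.662 times (SAMHD1) and 0.877 times (TK1) the DMSO mean, and the 2 means of RRM1 differed by 0.70 signal units. None of the 8 passed an adjusted p of 0.05 in limma without a replicate block, although 6 had an unadjusted p under it, all lower in APH. With a replicate block 6 of the 8 were called lower, beside 5692 of all 10813 starts. The labels do not say whether replicate numbers pair the samples. Across all gene starts the same shift was present, with 92.9% lower in APH, 40.4% lower at an unadjusted p under 0.05 and 2.41% (261 genes) lower at an adjusted p under 0.05. No start was called higher, and 51 (0.472%) were higher at an unadjusted p under 0.05. The 261 calls rested on single samples and on the scale, as leaving out APH replicate 3 gave 2044, leaving out any other sample gave 0 or 1, and centring the samples on their medians gave 0. The median log2 change over the 10813 starts was -0.27 and that of the 8 genes -0.40. A lower start value is thus common to most genes, and each gene is also given relative to the median of all starts. Changes in log2 are on the log2(value + 1) scale, with the standard error (SE) from limma.

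RRM2 had start values of 210, 329 and 311 in DMSO replicates 1 to 3 and of 179, 232 and 174 in APH replicates 1 to 3. APH replicate 2 lay above DMSO replicate 1, so the groups overlapped. The log2 change was -0.52 (SE 0.17, limma adjusted p = 0.067), or -0.25 relative to the median of all starts, and without DMSO replicate 2 these were -0.40 and -0.15. RRM2 had 2, 1 and 1 start peaks in DMSO and 2 in each APH sample (exact permutation p = 0.4). Each APH sample had a second start peak with its midpoint at -647 to -619 bp from the start and a value of 101 to 108. In DMSO only replicate 1 had an upstream peak, at -363 bp with a value of 108, and replicates 2 and 3 had none. Because such a weak peak lowers the weighted mean, the strongest RRM2 peak was also compared. Its value was 267, 329 and 311 in DMSO and 231, 291 and 199 in APH (log2 change -0.34, SE 0.15, limma adjusted p = 0.13). The sum of value times length in kb was 160.1 ± 6.62 for the DMSO samples and 159 ± 18.6 for the APH samples (SD, n = 3). The peaks covered 592 ± 178 bp and 827 ± 157 bp, and the log2 change of the sum was -0.02 (SE 0.11). The covered widths overlapped, with 796 bp in DMSO replicate 1 above 774 and 704 bp in APH replicates 1 and 2 (exact permutation p = 0.3). The median of all starts for the sum was -0.32, so RRM2 stood at 0.31 relative to it, and under cyclic loess the sum was higher in APH at 0.31 (limma adjusted p = 0.52).

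RRM1 is the partner subunit. Its start values were 176, 230 and 193 in DMSO and 204, 219 and 179 in APH. The groups overlapped fully, with means of 199.7 ± 27.3 and 200.4 ± 20.3 (SD, n = 3) and a log2 change of 0.01 (SE 0.13, limma adjusted p = 0.96). Relative to the median of all starts RRM1 was at 0.28, and in samples centred on their medians its log2 change was 0.28 (SE 0.13, limma adjusted p = 0.64). The covered width was 894, 760 and 845 bp in DMSO and 587, 579 and 628 bp in APH. Each APH sample covered less than each DMSO sample (p = 0.1 by a two-sided exact permutation, which cannot go lower with 3 against 3), as was found for 7.52% of all starts. The width of the strongest peak alone overlapped, at 894, 560 and 845 bp in DMSO against 587, 579 and 628 bp in APH (exact permutation p = 0.4). The peak ended 689 bp downstream of the start in DMSO replicate 1 and 645 bp in replicate 3, while in DMSO replicate 2 it ended at 360 bp and a separate peak of 200 bp with a value of 75.5 followed. In APH it ended 370 to 416 bp downstream. The sum of value times length was thus 157, 175 and 163 in DMSO and 119.6, 127 and 112 in APH (log2 change -0.46, SE 0.10, limma adjusted p = 0.025). By that measure 27.5% of all starts were called lower, and the median log2 change over all starts was -0.32. After cyclic loess normalization of the sums the log2 change of RRM1 was -0.14 (adjusted p = 0.75), so the call on the sum depended on the scale of the samples.

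**Figure D2:**
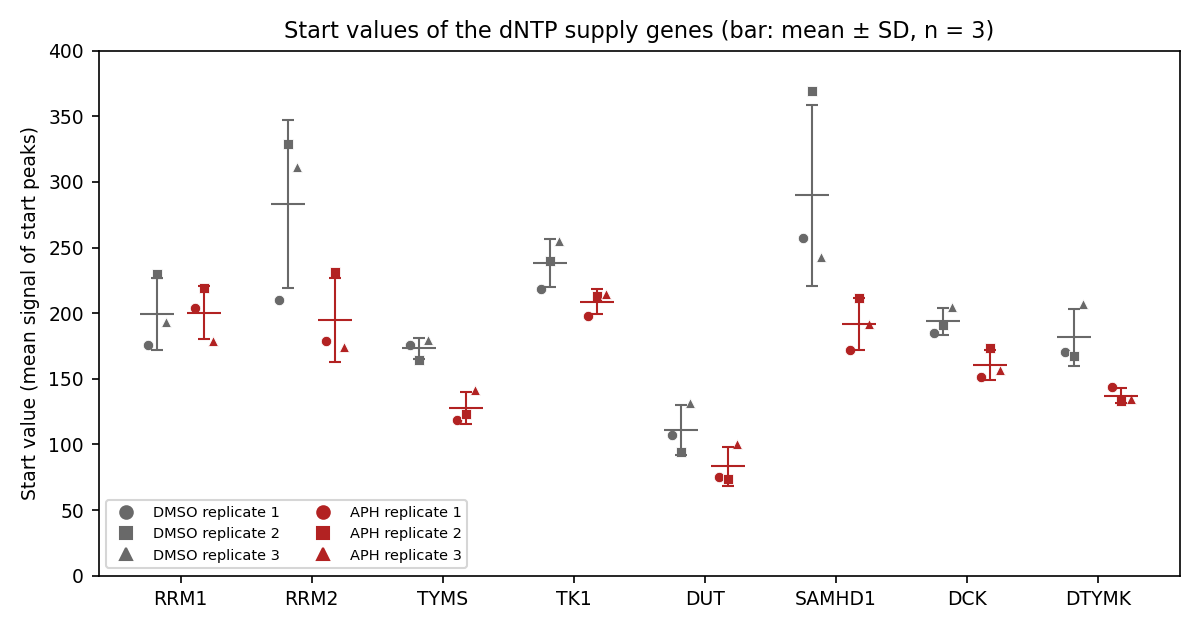
Start value (mean signal of the start peaks) of the 8 genes in each of the 6 samples, with the mean ± SD of each group of 3. The APH points lie below all DMSO points for TYMS, TK1, SAMHD1, DCK and DTYMK and overlap them for RRM1, RRM2 and DUT.

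For TYMS and DTYMK, which act in succession on the way to dTTP, the groups separated on the start value. TYMS had start values of 176, 164 and 179 in DMSO and 119, 123 and 142 in APH. All APH samples lay below all DMSO samples, with a log2 change of -0.44 (SE 0.12, limma adjusted p = 0.052). In APH replicate 1 the TYMS peak was split, and its part over the start had a value of 86.5 while the part 614 bp downstream had 146. DTYMK had 171, 168 and 207 in DMSO and 143, 133 and 135 in APH. It also separated, with a log2 change of -0.40 (SE 0.12, limma adjusted p = 0.056). Relative to the median of all starts TYMS was at -0.17 and DTYMK at -0.13, and without DMSO replicate 2 they were at -0.23 and -0.20. A start with all APH samples below all DMSO samples was found for 5 of the 8 genes (TYMS, TK1, SAMHD1, DCK and DTYMK), against 42.2% of all starts. In samples centred on their medians it was found for 0 of the 8 and 6.09% of all starts. After centring TK1 separated the other way, with APH above DMSO, as did 911 of the 10813 starts. On the sum of value times length, by which 27.5% of all starts were called lower, both genes passed the limma threshold, at -0.43 for TYMS (adjusted p = 0.036) and -0.58 for DTYMK (adjusted p = 0.048). Peaks were called in each sample on its own, so a sum mixes signal with the width called. The DTYMK sums overlapped, with APH replicate 3 (123) above DMSO replicate 2 (118). Under cyclic loess neither call remained, with -0.10 for TYMS (adjusted p = 0.78) and -0.25 for DTYMK (adjusted p = 0.62). TYMS covered 1313 ± 28.2 bp in DMSO and 1331 ± 154 bp in APH, and DTYMK 856 ± 146 bp and 752 ± 141 bp (SD, n = 3).

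DUT, which provides the dUMP used by TYMS, had 107, 94.1 and 132 in DMSO and 75.5, 73.8 and 100.5 in APH. APH replicate 3 lay above DMSO replicate 2, and the log2 change was -0.41 (SE 0.17, limma adjusted p = 0.097), or -0.14 relative to the median. Without DMSO replicate 2 these were -0.52 and -0.27. DUT had the lowest mean start value of the 8 genes. Its sum of value times length was 153 ± 21.6 in DMSO, beside 156 ± 32.9 for DTYMK, and 116 ± 29.9 in APH, beside 103 ± 17.5 for DTYMK (SD, n = 3). The mean start value of DUT over the 6 samples was 97.1. Its percentile among the genes with a start peak, taken in each sample and averaged, was 28.1. For the other 7 genes this mean percentile ranged from 55.6 (TYMS) to 81.7 (SAMHD1).

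The salvage kinases TK1 and DCK follow. TK1 had 219, 240.1 and 255 in DMSO and 198, 213 and 215 in APH. The groups separated, but the log2 change of -0.19 (SE 0.11, limma adjusted p = 0.20) was smaller in size than the median of all starts and stood at 0.08 relative to it. Its 2 start peaks did not have the same values. The peak over the start had 266, 288 and 317 in DMSO and 232, 250.3 and 265 in APH, a log2 change of -0.22 (SE 0.13, limma adjusted p = 0.51 among shared regions). The peak 642 bp inside the gene had 116, 141 and 127 in DMSO and 129, 141 and 112 in APH, a log2 change of -0.01 (SE 0.15). Whether the 2 peaks differ in their change was not tested. DCK had 185, 191 and 205 in DMSO and 151, 173 and 157 in APH. All APH samples were lower, with a log2 change of -0.27 (SE 0.11, limma adjusted p = 0.092), the same as the median of all starts to 2 decimals.

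SAMHD1, the dNTP hydrolase, had 258, 369 and 243 in DMSO and 172, 212 and 192 in APH. All APH samples lay below all DMSO samples, and DMSO replicate 2 stood above every other sample. The log2 change was -0.57 (SE 0.16, limma adjusted p = 0.052), or -0.30 relative to the median. Without DMSO replicate 2 these were -0.39 and -0.14, and DUT (-0.52), TYMS (-0.48), DTYMK (-0.45) and RRM2 (-0.40) then lay lower than SAMHD1. SAMHD1 too had a weak second start peak, with its midpoint 859 to 897 bp inside the gene in the 3 APH samples and at 856 bp in DMSO replicate 3. It had values of 84.9, 60.4 and 74.4 in APH and 81.2 in the DMSO sample. The strongest SAMHD1 peak had 258, 369 and 315 in DMSO and 217, 260.5 and 242 in APH. Here APH replicate 2 exceeded DMSO replicate 1, and the log2 change was -0.38 (SE 0.14, limma adjusted p = 0.098). The sum of value times length was 209, 193 and 220.0 in DMSO and 166, 175 and 185 in APH, which separated again (log2 change -0.24, SE 0.09, limma adjusted p = 0.071). The groups of SAMHD1 were thus apart for the weighted mean and the sum and not for the strongest peak.

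**Figure D3:**
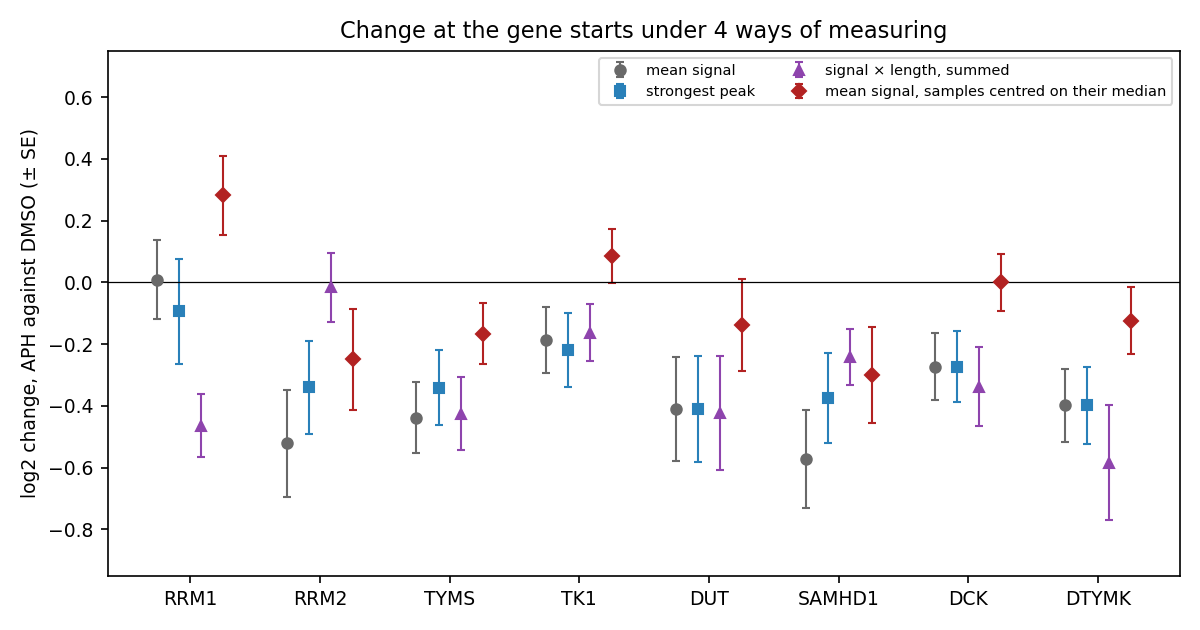
Change from DMSO to APH (log2, ± SE) at the 8 starts for the weighted mean signal, the strongest peak, the sum of signal times length, and the mean signal after centring each sample on its median over all starts. RRM1 and RRM2 trade places between the mean and the sum, and after centring DCK lies at 0 and RRM1 and TK1 above it.

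With the strongest peak in place of the weighted mean all 8 genes were lower in APH, from -0.09 (RRM1) to -0.41 (DUT), and none passed the adjusted threshold. By that measure 91.5% of all starts were lower and 0 were called. In samples centred on their medians RRM2, TYMS, DUT, SAMHD1 and DTYMK were lower, DCK was at 0 to 2 decimals, and RRM1 and TK1 were higher, from -0.30 (SAMHD1) to 0.28 (RRM1), none passed, and the share of all starts lower in APH was 48.8%. The direction of TK1 was thus higher under centring, quantile and cyclic loess normalization and lower in the values as deposited.

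**Figure D4:**
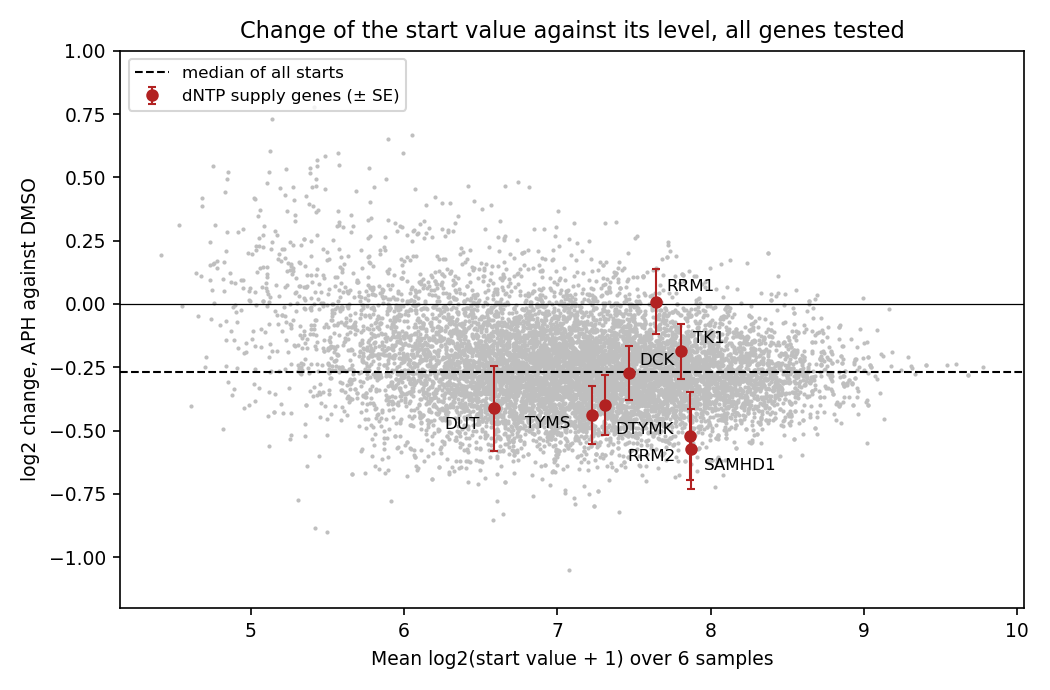
Log2 change from DMSO to APH against the mean log2(start value + 1) for the 10813 starts with a peak in all 6 samples (grey), with the 8 genes and their SE in red and the median of all starts, -0.27, as a dashed line. The 8 genes lie within the cloud, RRM1 at 0.01 and SAMHD1 at -0.57.

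In DMSO the order of mean start values was SAMHD1 (289.9), RRM2 (283), TK1 (238), RRM1 (199.7), DCK (194), DTYMK (182), TYMS (173) and DUT (111). Neighbours in this order overlapped in their ranges except TYMS and DUT, where the lowest TYMS sample (164) exceeded the highest DUT sample (132). These are mean signals over peaks and not sums, so they do not grow with the width of the peak alone. In APH TK1 had the highest mean (209), followed by RRM1 (200.4), RRM2 (195) and SAMHD1 (192), and their ranges overlapped. With the strongest peak the APH means were 249 for TK1, 240.5 for RRM2, 239.8 for SAMHD1 and 200.4 for RRM1.

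Body peaks numbered 0 to 2 per gene and sample except in RRM2. The 8 genes together had 10, 18 and 14 body peaks in DMSO and 17, 16 and 10 in APH, so the replicates of a group differed more than the groups. The number of body peaks was fitted with limma for the 7 genes with a mean of at least 1, and none passed, against 0.713% of 10657 genes called higher and 0.141% called lower. DCK had 2 body peaks and DTYMK 1 in every sample. TYMS, with too few for the fit, had 1 in DMSO replicate 2 and in APH replicates 1 and 2. RRM2 had the most, with 3, 7 and 4 in DMSO and 7, 6 and 4 in APH (limma adjusted p = 0.97). Merged over samples, body peaks formed 20 regions, of which 7 had a peak in all 6 samples. No region had a peak in all samples of one group and in none of the other.

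The RRM2 body in the RefSeq table is 88.4 kb long, and the GENCODE canonical transcript of RRM2 spans 8.7 kb. All RRM2 body regions but that at +1.5 kb (DMSO replicate 2 only) therefore lie beyond the canonical transcript. At +13.5 kb from the start the RRM2 region had values of 83.6, 95.1 and 97.5 in DMSO and of 134, 139 and 116 in APH. All APH samples lay above all DMSO samples, which was found for 4.21% of the 50150 regions that all 6 lists share. The log2 change was 0.49 (SE 0.15, limma unadjusted p = 0.0052, adjusted p = 0.29). It did not pass, and no shared region did in either direction (0 of 50150 by limma, with 1235 (2.46%) higher and 5062 (10.1%) lower at an unadjusted p under 0.05). At +39.6 kb RRM2 had 134, 146 and 134 in DMSO and 124, 162 and 132 in APH, a log2 change of 0.01 (SE 0.15, limma adjusted p = 0.99). The RRM2 region at +10.3 kb had a peak in 3 APH samples (88.8, 98.9 and 74.9) and in DMSO replicate 3 (66.1). Those at +10.9 and +18.9 kb each had a peak in 2 APH samples and 1 DMSO sample, and those at +14.8 and +65.9 kb in 2 samples of each group.

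**Figure D5:**
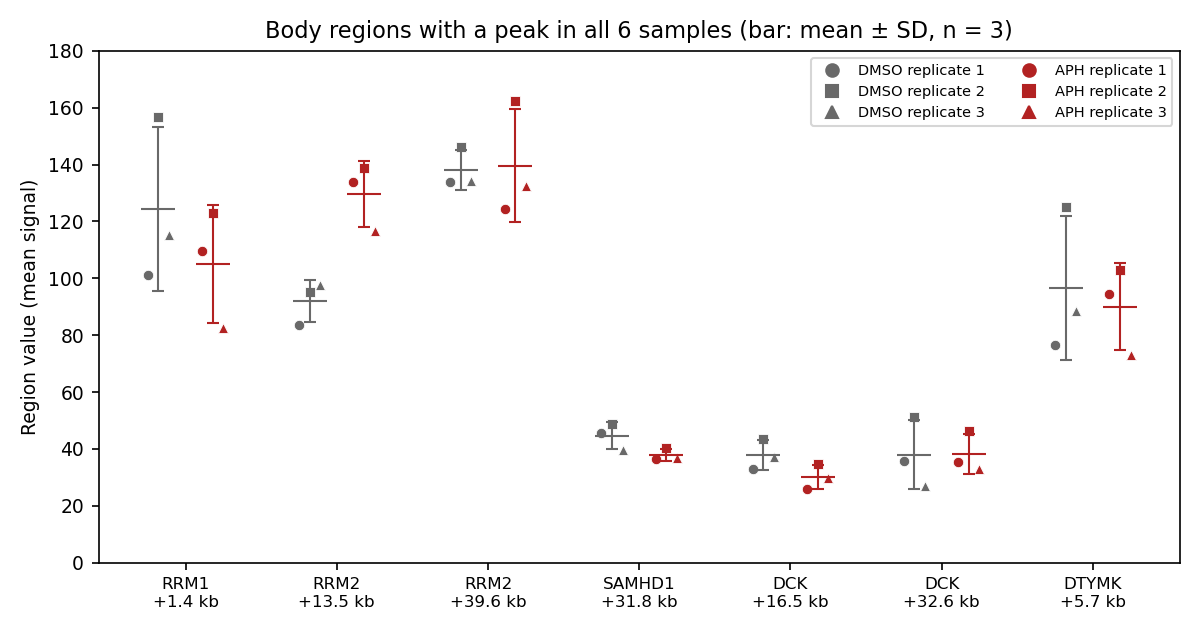
Value (mean signal) in each sample of the 7 body regions with a peak in all 6 samples, named by gene and distance from the gene start, with the mean ± SD of each group of 3. The RRM2 region at +13.5 kb is the one where the groups do not overlap, with APH above DMSO.

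In the remaining 6 body regions shared by all samples the groups overlapped in the values as deposited. Under cyclic loess normalization APH lay below DMSO for SAMHD1 at +31.8 kb and DCK at +16.5 kb and above it for RRM2 at +39.6 kb. None of these passed in limma (adjusted p = 0.54, 0.44 and 0.63). The share of all shared regions set apart under that normalization was not counted, so these separations cannot be set beside it. RRM1 had a shared region 1.4 kb inside the gene with values of 101, 157 and 115 in DMSO and 109.6, 123 and 82.5 in APH (log2 change -0.24, SE 0.19, limma adjusted p = 0.64). Leaving out 1 sample moved that change between -0.37 (without DMSO replicate 1) and -0.060 (without DMSO replicate 2), with -0.075 without APH replicate 3. DTYMK had one at +5.7 kb with 76.5, 125 and 88.5 in DMSO and 94.4, 103 and 73.1 in APH (log2 change -0.08, SE 0.20). The regions of SAMHD1 and DCK had means below the median peak value of the lists, which was 47.0 to 53.8 per sample. SAMHD1 at +31.8 kb had a mean of 44.7 ± 4.64 over the DMSO and 37.9 ± 2.13 over the APH samples (SD, n = 3) and a log2 change of -0.23 (SE 0.21). DCK at +16.5 kb had 37.9 ± 5.33 and 30.2 ± 4.29, and at +32.6 kb 38.0 ± 12.3 and 38.2 ± 7.07. Of the 7 regions 4 were lower and 3 higher in APH, with a median of -0.08, against -0.06 over all shared regions and 59.3% of them lower.

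Regions outside RRM2 with a peak in part of the samples were as follows. TK1 had one at +12.5 kb, near its end, in 3 APH samples (54.9 to 68.6) and 2 DMSO samples (59.0 and 67.3), and one at +10.5 kb in DMSO replicate 2 alone. Within DUT a peak at +6.0 kb was listed in 3 DMSO samples (22.6 to 36.3) and 2 APH samples (29.6 and 36.0). A peak at +12.9 kb, past the end of DUT and taken through the 1 kb margin, was in DMSO replicate 3 alone (18.9). SAMHD1 at +22.2 kb had a peak in 3 DMSO samples (20.3 to 29.0) and in APH replicates 1 and 2 (21.8 and 26.6). RRM1 at +20.7 kb had a peak in 2 samples of each group (22.0 to 32.4), and TYMS at +8.7 kb in 1 DMSO and 2 APH samples (28.1 to 29.2). That region and the 3′ part of TYMS also lie in the body of ENOSF1, on the other strand. The lowest value of any listed peak lay between 15.1 and 15.5 in the 6 samples, and a region has no value in a sample without a listed peak.

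Other genes of nucleotide supply were examined in the same fit. Of a list of 51 genes of purine and pyrimidine synthesis, folate metabolism, kinases and nucleotide sanitation, 48 had a start peak in all 6 samples, and CDA, NME4 and GMPS did not. Start values were lower in APH for 47 and higher for 1 (92.9% lower over all starts), with a median of -0.26 against -0.27 over all starts. Of the 48, 3 passed the adjusted threshold (limma adjusted p = 0.049 for each), all lower, against 2.41% of all starts. ADSS2, adenylosuccinate synthase of AMP synthesis, had 314, 293 and 325 in DMSO and 198, 195 and 213 in APH (log2 change -0.62, SE 0.11). NME1, a nucleoside diphosphate kinase, had 181, 199.6 and 179.6 in DMSO and 131, 114 and 138 in APH (log2 change -0.55, SE 0.12). PPAT, which begins purine synthesis, was at -0.46 (SE 0.10) and is named after its values were seen, to complete the 3. None of the 48 passed with the strongest peak, without DMSO replicate 2 or in samples centred on their medians. After centring 22 were lower and 26 higher. With the sum of value times length 10 of the 48 passed, all lower, against 27.5% of all starts called lower.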

How the data were processed

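The peak lists of 6 ATAC-seq samples of RKO cells, 3 APH and 3 DMSO by the treatment in the labels, were read. Per the authors, reads were aligned with BWA (0.7.12 in the submitters' processing notes, build hg38), duplicates were removed, alignments were lengthened to 200 bp and tallied in bins of 32 nt, and peaks were called in each sample with MACS2 (2.1.0) and freed of blacklisted sites. No shift to the transposase cutting site is named. The deposited value of a peak is the mean signal over it. Multiplied by the number of bins that the peak touches it was whole within 0.0006 per bin for 14.9% to 15.2% of the peaks tested. The share was 99.995% to 100% when that number or 1 more or 1 less was allowed. The value was thus taken as not scaled to library size, and a difference in depth would then pass into it. Reads sampled to equal depth beforehand would also give whole values, which was not tested.

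Gene bodies, names and starts came from RefSeq GRCh38.p14, the strand of 15842 coding genes from its promoter table and that of 3833 from GENCODE by symbol. Start values, the numbers of body peaks and the values of regions merged where peaks overlapped by at least 1 bp were compared with limma 3.58.1 (R 4.3.3, intensity trend, log2 of the value plus 1, two-sided, Benjamini-Hochberg adjustment over all features at 0.05). Single values were compared by an exact permutation test, which cannot go below 0.1 with 3 against 3. The study describes the ATAC-seq replicates as independent experiments, while the labels give replicate numbers alone and do not say what a number shares between groups. Data were simulated with noise independent between features and without the shift that most real starts share, so recovery in the real samples may differ. In them limma recovered 42% of gene starts changed by 0.5 (log2) among 10813 and all of those changed by 1. It recovered 6% and 82% of shared regions changed by 0.5 and 1 among 50150, and 24%, 46% and 70% of body peak numbers changed by 0.5, 1 and 2 among 10657.

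The genes and lists were chosen with earlier results of these data known. All 8 genes are named, with genes that share their peaks, the body regions with a peak in all samples and the 2 listed genes of smallest p in each direction, except that 1 listed gene and 1 leukocyte marker are not reported here. Scaling, pseudocount, peak threshold, window, filters, measure, a replicate block and leaving out each sample were varied. Body peak sequences were not read, since the genome at hand is of another build. Figures were drawn with matplotlib 3.10.9 in Python 3.11.15.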

Additional observations from a re-analysis of the deposited data

How the results depend on the processing

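The depth of the libraries is unknown, and 48 of 104 counts of calls moved by over 1.5 times under an alternative. Gene starts called lower in APH numbered 261, and 0 with centring on the median, quantile or cyclic loess normalization, the strongest peak or a 500 bp window. They numbered 2974 with the sum of signal times length (12 higher), 767 with a 2 kb window (8 higher), and 3 with a peak in at least 3 samples (6 higher). With all RefSeq starts, an alternative chosen after seeing the data like the next, they numbered 435 (1 higher), and with the sum under cyclic loess 0 (2 higher). Leaving out 1 sample gave 0 to 2044 lower and 0 to 20 higher, the 2044 without APH replicate 3, where TYMS (adjusted p = 0.030), DUT (0.040) and SAMHD1 (0.045) passed. TYMS also passed with the 2 kb window (0.048). Shared regions, 0 in both directions, gave 1 lower with centring, 156 higher and 46 lower with a peak in at least 3 samples, and 0 to 3 lower on leaving out a sample (3 without DMSO replicate 2). Numbers of body peaks, 76 genes higher and 15 lower, gave 116 and 28 with no filter, 15 and 4 with a mean of at least 3 body peaks, 48 higher with the stricter threshold, 51 lower with equal numbers of peaks, and 137 to 269 higher and 35 to 67 lower on leaving out a sample. The cause of these moves was not tested.

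Directions turned as follows. RRM1 went from 0.01 to -0.094 with the strongest peak, -0.094 with the 500 bp window, -0.084 with the 2 kb window, -0.46 with the sum, -0.14 with the sum under cyclic loess, and -0.077 to 0.11 on leaving out a sample. With the sum under cyclic loess RRM2 was at 0.31, TK1 at 0.16 and SAMHD1 at 0.083. TK1 was at 0.086 with centring, 0.093 with quantile and 0.098 with cyclic loess normalization, where DCK was at 0.0081. The DCK region at +32.6 kb was at -0.035 with quantile and -0.034 with loess, that of DTYMK at +5.7 kb at 0.015 and 0.011. On leaving out a sample they ran from -0.18 to 0.27 and from -0.24 to 0.11, the RRM2 region at +39.6 kb from -0.10 to 0.087, and the number of TK1 body peaks from -0.29 to 0.50. That of SAMHD1 was 0.14 with the 500 bp window. DUT could not be fitted with the 500 bp window.

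Same-numbered samples did not deviate together in every pair (correlations over gene starts -0.09, 0.59 and 0.60), and DMSO replicate 1 correlated best with APH replicate 3, so the numbers were not taken to pair the samples. A replicate block gave 5692 of the 10813 gene starts lower and 64 higher. Of the 50150 shared regions it gave 5583 lower and 1021 higher. It called RRM2, TYMS, DUT, SAMHD1, DCK and DTYMK (limma adjusted p 0.0059 to 0.024) and the RRM2 region at +13.5 kb (0.0080), and it changed no other call of the 8 genes. Of the 48 listed genes of nucleotide supply 25 were called lower with the block, against 5692 of 10813 over all starts.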
